A study of Mus musculus with 16 samples.

Results

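Mouse melanomas biopsied after 60 days on a BRAF inhibitor were compared with mouse melanomas biopsied after 4 days on it. The members were 8 of the 16 tumours of the series, chosen by their titles, with 4 titled as 60-day tumours and 4 titled as 4-day tumours, and all genes on the array were read. A BRAF inhibitor blocks the mutant kinase that keeps the growth-signalling MAPK pathway active in many melanomas. The other 8 tumours were 4 untreated tumours and 4 tumours with acquired resistance at 120 days, and their arrays served to estimate the spread and to give levels beside those of the treated tumours. The sources used here do not give the drug, its dose, the strain, genotype and age of the mice, or the hour of the day at which each biopsy was taken. Each tumour RNA, labelled with the red dye Cy5, shared an array with a pooled mouse reference RNA labelled with the green dye Cy3. A value is therefore the log2 ratio of tumour over reference, where 1 unit is a 2-fold difference, and ratios of different genes cannot be ranked against each other. The biopsies were whole tissue, so fewer cells of a type and less RNA per cell cannot be told apart.

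Replicates 3 and 4 of each group lay on slide 1 and replicates 1 and 2 on slide 2, so slide and group could be separated. Among the 60-day tumours, replicates 1 and 2 share the title code RG6 and replicates 3 and 4 the code RG7, while the 4-day tumours carry codes of an own series, STS. The sources used here do not say what the codes stand for. The code series, and the position of an array within its slide, therefore cannot be told apart from the time on treatment. Nothing in the labels says that tumours with 1 code came from separate animals, so the p-values measure the spread between these samples. The share of probes well above background in Cy5 was 50.8% to 55.3% in 60-day tumours and 50.5% to 53.7% in 4-day tumours. On the arrays of 4-day replicates 1 and 2, 657 and 393 Cy5 spots were marked as not uniform, against 3 to 26 on every other array of the series. Across genes, which are not independent replicates, arrays of the 60-day group correlated at 0.920 to 0.961, arrays of the 4-day group at 0.833 to 0.941, and arrays of different groups at 0.843 to 0.960. All 7 of the melanocyte markers listed for the check of the labelled tissue were above background on every array of both groups.

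The gene that separated the 60-day from the 4-day tumours past the threshold was Arntl (also called Bmal1), a core gene of the circadian clock. It was higher in 60-day tumours. Dbp, Tef, Per1, Per2, Ciart, Cry2 and Nr1d2, further clock genes, each had lower values in every 60-day tumour than in any 4-day tumour. None of them passed the threshold, and the clock genes were not tested as a set. Of 21984 genes and transcripts tested, Arntl was the 1 called at an adjusted p under 0.05 (0.00455% of those tested), and no gene was called lower (0%). Before adjustment, 685 genes (3.12%) had a p under 0.05, 370 higher and 315 lower in 60-day tumours, where 1099 would be reached if no gene differed. The median difference over all genes was 0.02, and 90% of genes lay between -0.31 and 0.34, with a median standard error of 0.15. Of the 21585 genes measured on all 8 arrays, 355 (1.64%) had groups that did not overlap.

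As background, the clock is a loop of transcription. The proteins of Arntl and Clock form a dimer that binds E-boxes and switches on the Per, Cry and Nr1d genes and the output genes Dbp and Tef; PER and CRY proteins then block the dimer, and the REV-ERB proteins encoded by Nr1d1 and Nr1d2 repress Arntl. Dbp, Tef and Hlf encode the PAR bZIP factors, which bind D-boxes in further output genes, and in most mouse tissues Arntl RNA peaks at about the time of day at which Dbp RNA is lowest.

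For some clock genes these elements can be seen in the promoter sequences that RefSeq gives for build GRCm38.p6, as windows of 250 bases before to 50 bases after a start site. The sequences shown are those of Arntl and of 4 clock genes that hold an element, with the element in capitals, written 5′ to 3′ on the gene's strand. For Arntl, 30 bases just after the start site are shown (chr7:113207529-113207558, plus strand), with the core of the element bound by ROR and REV-ERB receptors. For Ciart (chr3:95882229-95882478, minus strand), Per1 (chr11:69098699-69098948, plus strand) and Tef (chr15:81802423-81802672, plus strand) the 250 bases before the start site are given with their E-boxes. For Per3 (chr4:151044666-151044915, minus strand) the same stretch is given with its D-boxes.
Arntl: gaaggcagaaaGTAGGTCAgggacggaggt
Ciart: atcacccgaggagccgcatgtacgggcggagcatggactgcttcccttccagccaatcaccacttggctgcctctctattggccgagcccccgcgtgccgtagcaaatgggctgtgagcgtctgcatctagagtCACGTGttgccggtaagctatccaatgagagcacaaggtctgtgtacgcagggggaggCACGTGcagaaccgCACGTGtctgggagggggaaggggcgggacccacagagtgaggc
Per1: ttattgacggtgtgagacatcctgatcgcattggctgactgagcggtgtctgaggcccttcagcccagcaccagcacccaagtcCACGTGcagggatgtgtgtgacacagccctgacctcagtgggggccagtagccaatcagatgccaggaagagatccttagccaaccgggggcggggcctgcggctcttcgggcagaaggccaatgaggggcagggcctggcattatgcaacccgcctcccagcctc
Tef: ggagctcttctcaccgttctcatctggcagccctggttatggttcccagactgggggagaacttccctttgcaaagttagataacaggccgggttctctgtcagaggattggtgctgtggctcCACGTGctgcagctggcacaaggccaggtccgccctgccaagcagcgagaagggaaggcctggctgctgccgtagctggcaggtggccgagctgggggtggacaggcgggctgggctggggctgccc
Per3: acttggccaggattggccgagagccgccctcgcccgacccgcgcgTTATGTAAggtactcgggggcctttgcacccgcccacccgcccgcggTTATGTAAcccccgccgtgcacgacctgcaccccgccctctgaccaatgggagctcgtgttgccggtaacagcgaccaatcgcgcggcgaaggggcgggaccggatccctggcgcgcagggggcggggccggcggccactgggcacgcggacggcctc

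The E-box CACGTG, which reads the same on both strands, was present in 7.15% of the 32851 promoter windows of the table. Among the 26 clock genes of the lists described here, 19 had a window, and E-boxes were found for Bhlhe41, Ciart, Cry1, Per1 and Tef. These matches lay in 6 of the 29 windows of the clock genes. No E-box was found for Dbp, Per2, Per3, Cry2, Nr1d1 or Nr1d2, which had no match or no window. Bhlhe41 and Cry1, whose sequences are not shown, differed by 0.08 ± 0.15 and 0.04 ± 0.16 (SE) between 60-day and 4-day tumours. In Ciart they began at -116, -58 and -44 from the start site, in Per1 at -166, and in Tef at -127 in the window shown and at -138 in a second window. The receptor element core GTAGGTCA, searched on both strands, was in 0.621% of windows and was found in Arntl and Nfil3. The sequence of Nfil3, which differed by 0.22 ± 0.36, is not shown. The D-box, searched as TTATGTAA or TTACGTAA on both strands, was in 1.06% of windows and was found in Per3, beginning at -205 and -158. None of the matches shown overlaps another, and a match is a description of the letters only.

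Arntl (mouse build mm9, chromosome 7, probe from 120457261 to 120457320) had log2 ratios of 0.22, 0.44, 0.99 and 0.82 in 60-day replicates 1 to 4, against -0.77, -1.46, -0.86 and -0.32 in 4-day replicates 1 to 4. All 60-day tumours lay above all 4-day tumours. The difference was 1.47 ± 0.17 (SE), a 2.77-fold higher level in 60-day tumours, with an adjusted p of 0.0214. On slide 1 alone the difference was 1.496 and on slide 2 alone 1.443. It was positive under all 36 alternative settings, from 1.23 to 1.71, but the call itself was lost under 15 of them. The adjusted p was 0.066, 0.15, 0.166 and 0.134 without 60-day replicates 1 to 4, 0.0735 and 0.136 without 4-day replicates 2 and 3, and 0.0585 and 0.0515 without untreated replicates 2 and 3. With the 8 arrays fitted alone it was 0.702. Clock, the gene of the partner protein, had 0.30, 0.19, 0.64 and 0.41 in 60-day tumours, against -0.38, -0.25, -0.27 and 0.12 in 4-day tumours. Its groups did not overlap either, and the difference of 0.58 ± 0.16 did not pass after adjustment (unadjusted p = 0.00347).

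**Figure D1:**
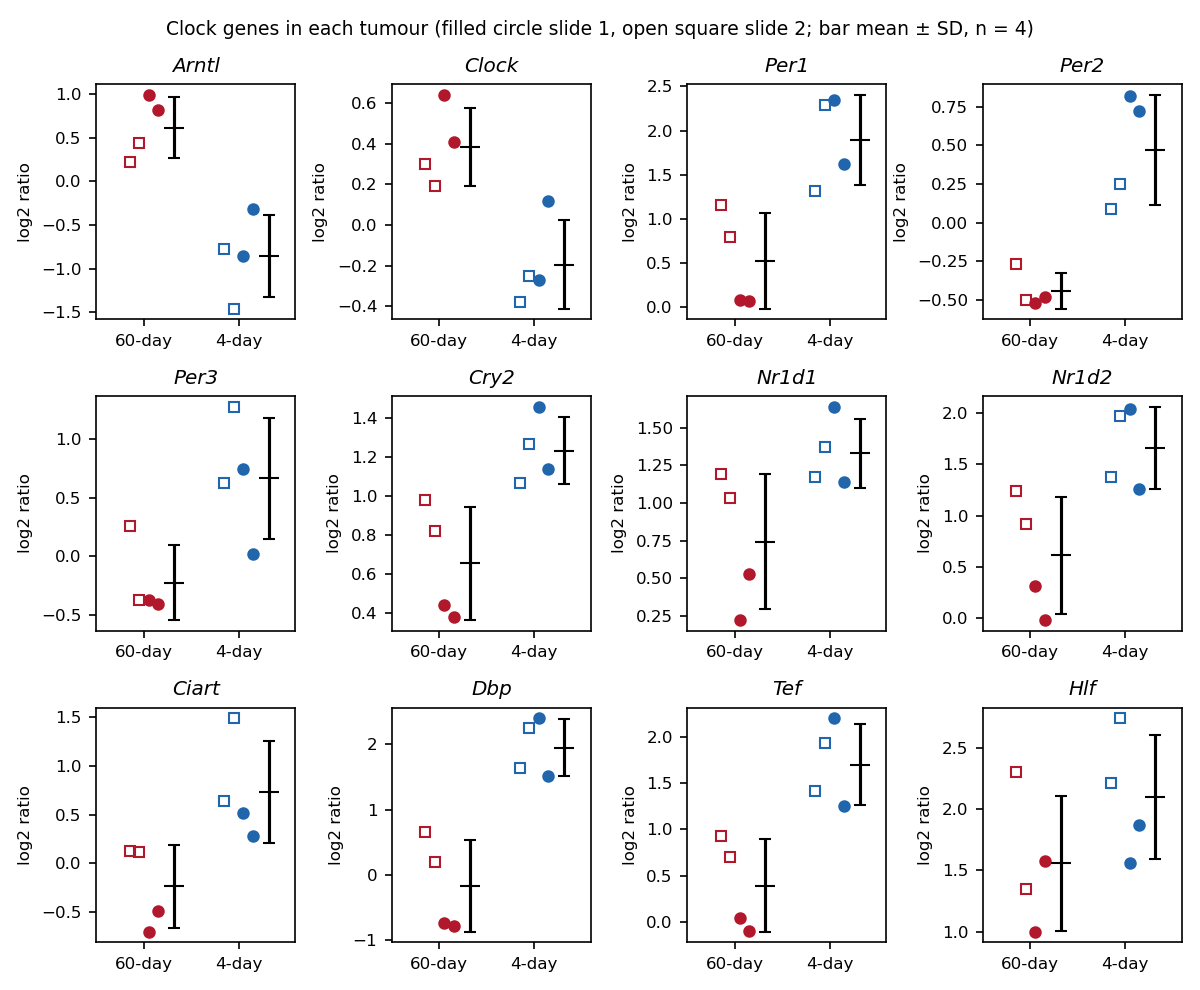
Log2 ratio of tumour over reference RNA for 12 clock genes, 1 panel each, with the 60-day tumours in red on the left and the 4-day tumours in blue on the right (filled circles slide 1, open squares slide 2, bars mean ± SD, n = 4). Arntl and Clock lay higher in every 60-day tumour, Dbp lay lower in every 60-day tumour, and for several genes the 2 RG7 tumours on slide 1 stood apart from the 2 RG6 tumours.

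Dbp had the largest difference of any clock gene. It measured 0.65, 0.20, -0.73 and -0.78 in 60-day tumours, against 1.63, 2.25, 2.40 and 1.52 in 4-day tumours. The groups were apart, by -2.12 ± 0.33, which is a 4.34-fold lower mean in 60-day tumours, and the adjusted p was 0.168. A second probe for Dbp gave -2.31. Tef, a factor of the same family, had 0.93, 0.70, 0.05 and -0.10 in 60-day tumours, against 1.42, 1.93, 2.20 and 1.25 in 4-day tumours (difference -1.30 ± 0.26, adjusted p = 0.576). Hlf, the remaining PAR bZIP gene, had overlapping groups and a difference of -0.54 ± 0.34.

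Among the genes whose proteins block the Arntl and Clock dimer, the Period genes lay lower in 60-day tumours. Per1 measured 1.16, 0.80, 0.08 and 0.07 in 60-day tumours, against 1.32, 2.29, 2.35 and 1.62 in 4-day tumours (difference -1.37 ± 0.32). Per2 measured -0.27, -0.50, -0.52 and -0.48 in 60-day tumours, against 0.09, 0.25, 0.82 and 0.72 in 4-day tumours (-0.91 ± 0.16, adjusted p = 0.382). Neither gene had overlapping groups. Per3 averaged -0.22 ± 0.32 in 60-day tumours and 0.67 ± 0.52 in 4-day tumours (SD, n = 4 each), and 60-day replicate 1 overlapped the 4-day range. Ciart, another repressor of the dimer, had 0.13, 0.12, -0.70 and -0.49 in 60-day tumours, against 0.64, 1.49, 0.52 and 0.28 in 4-day tumours, which did not overlap (-0.97 ± 0.21). Cry2 differed by -0.58 ± 0.15 with groups apart, and its second probe gave -0.67. Cry1 differed by 0.04 ± 0.16. Background limits the values of 2 of these genes: Cry1 was well above it in 2 of the 4-day tumours, and Per2 in 3 of the 60-day tumours.

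The REV-ERB genes, whose proteins repress Arntl, also lay lower in 60-day tumours. Nr1d2 measured 1.24, 0.92, 0.31 and -0.02 in 60-day tumours, against 1.38, 1.97, 2.04 and 1.26 in 4-day tumours (difference -1.05 ± 0.31, groups apart, second probe -0.87). Nr1d1 differed by -0.59 ± 0.22 with overlapping groups. Rora, which encodes a receptor that activates Arntl, differed by 0.59 ± 0.30 on its brighter probe and by -0.08 on another, so its probes disagree. Npas2, which can stand in for Clock, was above background in 1 tumour of each group.

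All 26 genes of the 2 clock lists were measured. Of these, 9 had groups that did not overlap, 2 higher (Arntl and Clock) and 7 lower in 60-day tumours, where 0.815% and 0.829% of all genes did. Before adjustment, a p under 0.05 was reached by 2 higher and 11 lower, against 1.68% and 1.43% of all genes. In the output list of 12 genes 10 differences were negative, with a median of -0.51, and in the core loop list of 14 genes 9 were negative, with a median of -0.13, beside a median of 0.02 over all genes. Besides the genes already named, Bhlhe40 (-0.43 ± 0.16) and Wee1 (-0.48 ± 0.22) were below that unadjusted threshold, and Wee1 was at 0.04 on slide 2 alone. After adjustment over all genes, Arntl was called and the other 25 clock genes were not.

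**Figure D2:**
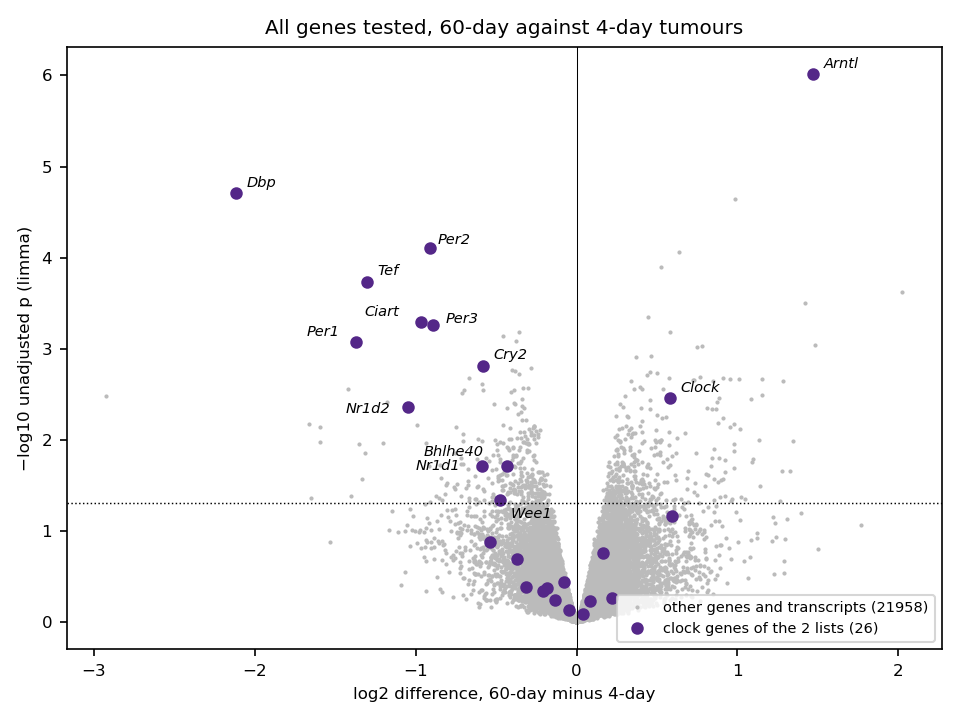
Difference in log2 ratio, 60-day minus 4-day, against the unadjusted p on a −log10 scale for 21984 genes and transcripts, with the 26 clock genes in purple and an unadjusted p of 0.05 as a dotted line. Arntl lies at the top right at 1.47 and Dbp at the top left at -2.12.

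Within the 60-day group the clock genes were not uniform. In the RG6 tumours (replicates 1 and 2, slide 2) Dbp, Tef, Per1, Cry2, Nr1d1, Nr1d2 and Ciart all lay above their values in the RG7 tumours (replicates 3 and 4, slide 1), and Arntl and Clock lay below them. The difference for Dbp was -2.72 on slide 1 and -1.52 on slide 2, and for Per1 it was -1.92 on slide 1 and -0.83 on slide 2. Code and slide coincide within this group, so the part of either cannot be told apart. In the 4-day group the tumours of the 2 slides were interleaved for Dbp, Tef, Per1, Cry2, Nr1d1, Nr1d2, Arntl and Clock. Ciart was split by slide there too, in the same direction, with 0.64 and 1.49 on slide 2 and 0.52 and 0.28 on slide 1.

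**Figure D3:**
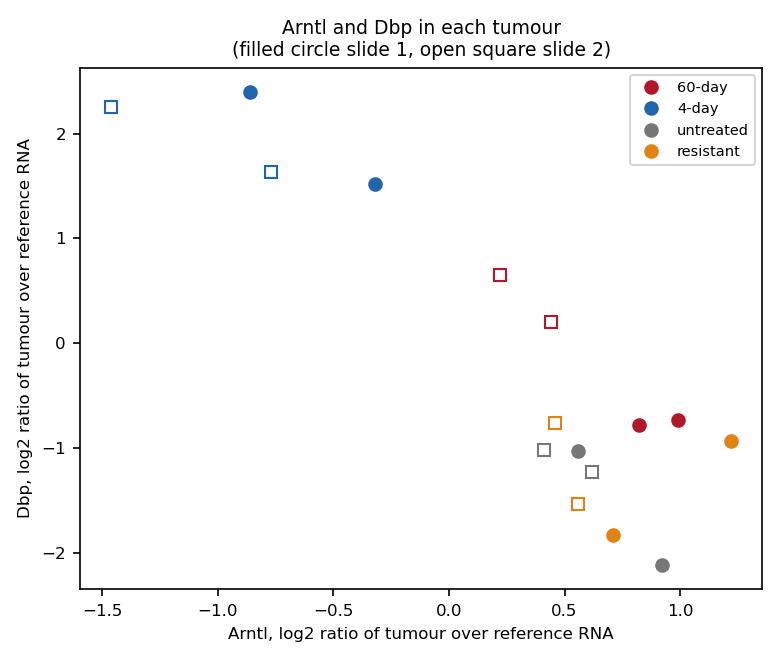
Arntl on the horizontal axis and Dbp on the vertical axis, each as log2 ratio of tumour over reference, for the 16 tumours of the series (filled circles slide 1, open squares slide 2). The 4-day tumours lie at the upper left, the RG6 tumours of the 60-day group lie between them and the other tumours, and the RG7 tumours lie near the untreated and resistant ones.

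The levels of clock genes can be set beside those in the rest of the series. Mean Arntl was 0.63 in untreated, -0.85 in 4-day, 0.62 in 60-day and 0.74 in resistant tumours. For Dbp the means were -1.35 in untreated, 1.95 in 4-day, -0.17 in 60-day and -1.26 in resistant tumours. Tef averaged -0.01 in untreated, 1.70 in 4-day, 0.40 in 60-day and -0.11 in resistant tumours. The Per2 means were -0.67 in untreated, 0.47 in 4-day, -0.44 in 60-day and -0.52 in resistant tumours. Hlf averaged 0.37 in untreated, 2.10 in 4-day, 1.56 in 60-day and 0.53 in resistant tumours, and Nr1d1 averaged -0.18 in untreated, 1.33 in 4-day, 0.74 in 60-day and 0.12 in resistant tumours. For Arntl, Dbp, Tef and Per2 the 60-day mean lay nearer to the untreated than to the 4-day mean, while for Hlf and Nr1d1 it lay nearer to the 4-day mean. These levels are given as a description, and no difference from the untreated or resistant tumours was tested for them here.

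**Figure D4:**
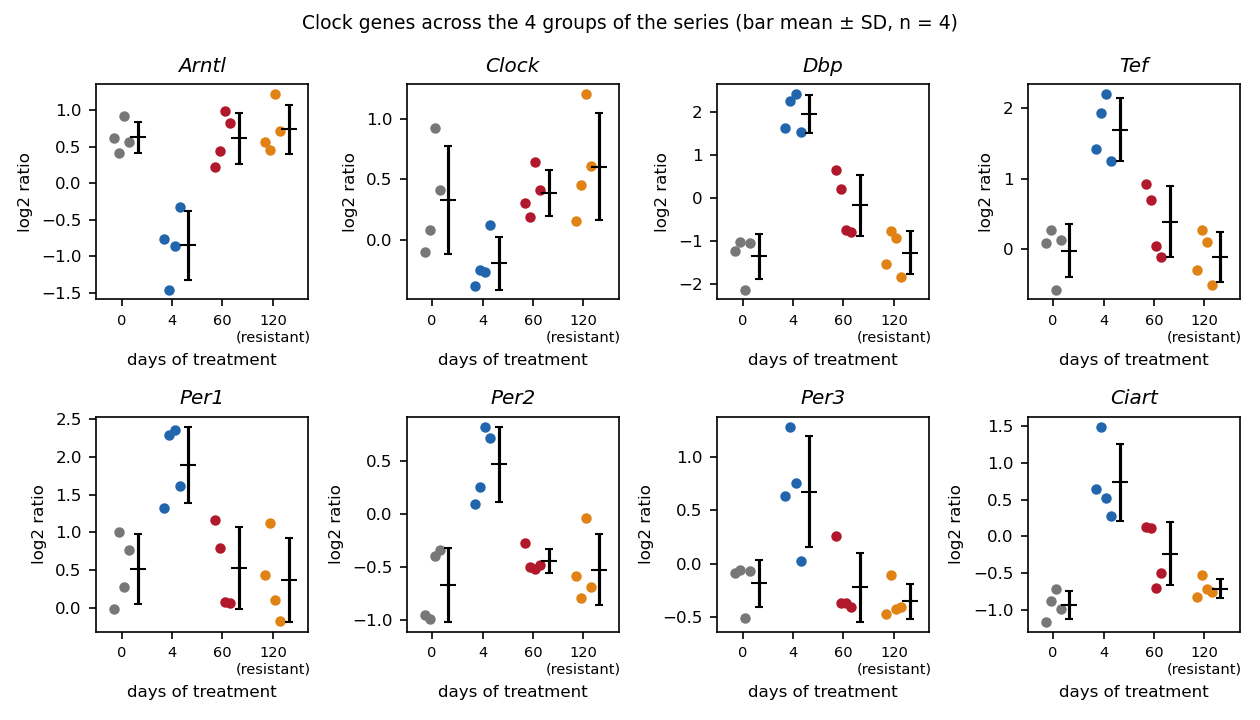
Log2 ratio of tumour over reference for 8 clock genes in untreated (0 days), 4-day, 60-day and resistant (120 days) tumours, with a dot per tumour and bars for mean ± SD (n = 4). Mean Arntl was -0.85 in 4-day tumours and between 0.62 and 0.74 in the other groups.

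As background, Per1 is also induced by glucocorticoid hormones, so the list of their targets was read beside the clock genes. Of its 18 measured genes, 7 differences were positive and 11 negative, with a median of -0.13, and 1, Per1 itself, was below an unadjusted p of 0.05 and lower (1.43% of all genes were). Tsc22d3, a widely used glucocorticoid target, measured 2.70, 2.79, 1.38 and 1.68 in 60-day tumours, against 1.56, 3.15, 2.96 and 2.13 in 4-day tumours. The groups overlapped (-0.31 ± 0.37). Per1 and Tsc22d3 are also among the 26 clock genes, so the list is not separate from them. Mt1 and Mt2, its 2 brightest members, differed by -0.11 ± 0.19 and 0.14 ± 0.24. The list's median was -0.37 on slide 1 and 0.09 on slide 2, and -0.03 without 4-day replicate 3.

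Outside the clock, the genes with the smallest p among those higher in 60-day tumours did not pass the adjusted threshold. Ucma, a cartilage matrix protein gene, measured 2.12, 2.24, 1.86 and 1.47 in 60-day tumours, against -0.42, -0.11, -0.01 and 0.14 in 4-day tumours, where it was not well above background on any array. The difference was 2.02 ± 0.41 (adjusted p = 0.656). In the Cy5 channel alone its mean was 4.86-fold higher in 60-day tumours (mean log2 signal 8.35 in 60-day and 6.07 in 4-day tumours). That estimate is limited by background in the 4-day tumours and open to dye bias because no dyes were swapped. Zcchc12 measured 3.07, 2.24, 2.31 and 2.36 in 60-day tumours, against 1.21, 0.96, 1.39 and 0.74 in 4-day tumours (1.42 ± 0.30). Col28a1, a collagen gene, differed by 1.48 ± 0.35, with 2.30 to 3.68 in 60-day tumours and 0.76 to 2.19 in 4-day tumours, but by -0.11 with the deposited value table. The remaining differences were small. Leo1, a subunit gene of the PAF1 transcription elongation complex, differed by 0.64 ± 0.12, and Lonrf3 by 0.52 ± 0.10. Adcy5, an adenylyl cyclase gene, differed by 0.45 ± 0.10, Adgrb1 by 0.75 ± 0.18 and Usp46, a deubiquitinase gene, by 0.46 ± 0.12. Sdf2l1, a gene of protein folding in the endoplasmic reticulum, differed by 0.46 ± 0.11. P4ha1, which encodes a collagen prolyl hydroxylase subunit, differed by 0.37 ± 0.09. Gm33926 was not well above background in any 4-day tumour and differed by 0.58 ± 0.13. In Cy5 alone the difference was 1.37-fold, with the same limits (mean log2 signal 6.83 in 60-day and 6.37 in 4-day tumours).

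On the lower side, 7 of the 12 genes with the smallest p were clock genes. The other 5 differed by less than 1 on the log2 scale. Alcam, a cell adhesion gene, measured 0.15, 0.39, 0.70 and 0.60 in 60-day tumours, against 1.14, 0.78, 0.88 and 1.39 in 4-day tumours (-0.59 ± 0.16, groups apart). Pik3ip1, which encodes an inhibitor of PI3 kinase, differed by -0.58 ± 0.15, and Chst1, a sulfotransferase gene, by -0.67 ± 0.18. Mamstr, a coactivator of MEF2 factors, differed by -0.46 ± 0.11. The pseudogene Znf41-ps differed by -0.40 ± 0.10, and its probe may not tell it from related zinc finger genes.

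Medians of the gene lists that follow rest on few arrays. Of the 24 lists described, 12 changed the sign of their median when 1 array was left out and 12 did not, and the clock output, MAPK output and hypoxia lists were those that also moved by less than 1.5 times.

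The MAPK pathway, which the drug targets, has output genes that fall when the kinase is blocked. Of its 20 measured output genes, 18 differences were positive and 3 were below an unadjusted p of 0.05, all higher in 60-day tumours (1.68% of all genes were); the median was 0.24. Ccnd1, the cyclin D1 gene, measured 1.66, 0.41, 0.99 and 1.73 in 60-day tumours, against -0.10, 0.73, -0.13 and -0.04 in 4-day tumours (1.08 ± 0.31, unadjusted p = 0.00362). The overlap came from 60-day replicate 2, which was the lowest of its group, and 4-day replicate 2, which was the highest of its own. Spry4, a feedback inhibitor of the pathway, had the same arrangement, with 2.06, 0.38, 0.93 and 1.07 in 60-day tumours, against -0.07, 1.01, -0.05 and -0.39 in 4-day tumours (0.98 ± 0.37). Dusp6, another feedback gene, differed by -0.05 ± 0.19, and Etv5 by 0.29 ± 0.28. Braf itself differed by -0.11 ± 0.19.

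No gene of cell division was called. In the list of mitosis and spindle genes 23 of 24 differences were positive, with a median of 0.33 (0.41 on slide 1 and 0.24 on slide 2), and 2 were below an unadjusted p of 0.05, both higher (1.68% of all genes were). Without 4-day replicate 3 the median was 0.14. The mean over the list overlapped between the groups, with -1.88 to -1.67 in 60-day tumours and -2.57 to -1.77 in 4-day tumours. Mki67, a marker of dividing cells, measured -1.63, -1.52, -0.78 and -1.14 in 60-day tumours, against -1.42, -2.19, -2.04 and -0.98 in 4-day tumours, which overlapped (0.39 ± 0.36). Birc5 differed by 0.33 ± 0.26. Among 26 DNA replication genes 22 differences were positive, with a median of 0.12 (0.01 without 4-day replicate 3), and none was below that unadjusted threshold. Pcna, the replication clamp gene, differed by 0.23 ± 0.14 and Mcm6 by 0.13 ± 0.12.

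No pigment gene reached an unadjusted p under 0.05. Over 19 genes of melanin and the melanocyte lineage the median difference was -0.01, with 0.38 on slide 1 and -0.44 on slide 2, and it changed sign without 4-day replicate 2 (0.10), 4-day replicate 4 (0.05) or 60-day replicate 1 (0.18). Tyr, which encodes tyrosinase, differed by -0.03 ± 0.32, and Dct by 0.20 ± 0.57. For Mitf, the lineage's transcription factor, the values were 0.41, 1.03, 1.18 and 1.01 in 60-day tumours, against 1.41, 0.98, 1.27 and 1.51 in 4-day tumours (-0.38 ± 0.20). Gpnmb differed by -0.06 ± 0.45.

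In the metabolic lists the differences were small. All 23 measured genes of cholesterol synthesis had positive differences, with a median of 0.31, which was 0.56 on slide 1 and 0.12 on slide 2. Without 4-day replicate 3 the median was 0.01. That tumour had a list mean of -0.03, against 0.51 to 1.04 in the other 4-day tumours, while 60-day tumours had 0.66 to 1.10. A single gene was below an unadjusted p of 0.05, and it was higher (1.68% of all genes were). Fdps, an enzyme gene of the pathway, differed by 0.37 ± 0.26 and Hmgcs1 by 0.21 ± 0.34. In the hypoxia and glycolysis list 20 of 28 differences were positive and 4 were below that threshold, all higher (1.68% of all genes were), with a median of 0.20, while the glycolytic genes Gapdh (-0.05 ± 0.12) and Aldoa (-0.12 ± 0.20) were not among them. The Gapdh probe is placed on chromosome 7, and whether it reads that gene alone was not checked. The 32 genes of oxidative phosphorylation had differences between -0.15 and 0.10.

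Imprinted growth genes, which are expressed from 1 parental copy and are high in fetal tissue, included 4 of 19 below an unadjusted p of 0.05, all lower in 60-day tumours (1.43% of all genes were). The list's median was -0.20, and -0.08 without 60-day replicate 2. Mest measured 1.07, 1.19, 1.04 and 1.35 in 60-day tumours, against 2.97, 2.01, 3.63 and 2.42 in 4-day tumours (-1.60 ± 0.50). The groups were apart, and the 60-day tumours lay within a much narrower range. Its mean was 4.15 in untreated, 2.76 in 4-day, 1.16 in 60-day and 2.21 in resistant tumours. Mirg, a non-coding RNA gene of the list, was split by slide in both groups, with 0.84, 0.99, -2.46 and -2.15 in 60-day tumours and 0.80, 1.26, -2.48 and -2.54 in 4-day tumours. Dcn, a matrix proteoglycan gene, differed by -0.20 ± 0.43.

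Lists of the skin and stroma around the tumours had medians between -0.05 and 0.25, and those of the hair and fibroblast lists changed sign when 1 array was left out. Hair shaft and root sheath keratins had a median difference of 0.10 over 23 genes, with Krt71 at -0.03 ± 0.48, Krt85 at 0.03 ± 0.29 and Krt27 at 0.01 ± 0.72. The Krt85 probe has no mapped position and no RefSeq symbol here. The median over 27 epidermal genes was 0.17 (0.006 without 4-day replicate 3), with Krt14 at 0.16 ± 0.28, Krt5 at 0.06 ± 0.23 and Krt16 at 0.48 ± 0.41. In 19 sebaceous gland genes the median was 0.25 (0.03 without 4-day replicate 3), with Scd1, a fatty acid desaturase gene, at 0.30 ± 0.28 and Dgat2 at 0.23 ± 0.48. Fibroblast genes (27 measured) had a median of -0.05, with Col1a1 at -0.22 ± 0.29, Col1a2 at -0.24 ± 0.37, Sparc at -0.25 ± 0.43 and Postn at -0.34 ± 0.29. In none of these 4 lists was a gene below an unadjusted p of 0.05. Adamts4, a matrix protease gene, measured 3.48, 2.47, 3.29 and 3.19 in 60-day tumours, against 2.46, 1.95, 2.27 and 1.13 in 4-day tumours (1.15 ± 0.32, groups apart). Adh1, an alcohol dehydrogenase gene of retinoid metabolism, differed by -0.34 ± 0.24.

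Skeletal muscle and fat, tissues that lie under the skin, varied between single biopsies. For the muscle list the mean log2 ratio over 24 genes ranged from -0.33 to 3.43 in 60-day tumours and from 0.98 to 3.66 in 4-day tumours. Acta1, the skeletal actin gene, measured 2.11, 3.49, -1.18 and 3.40 in 60-day tumours, against 3.68, 0.01, 3.37 and 3.83 in 4-day tumours, so 60-day replicate 3 and 4-day replicate 2 were low. The list's median difference was -0.59 over both slides, -1.72 on slide 1 and 0.63 on slide 2, and no gene of it was below an unadjusted p of 0.05. It was 0.18 without 60-day replicate 3. The fast troponin gene Tnnc2 differed by -0.51 ± 0.69, and the muscle enolase gene Eno3 by -1.53 ± 0.96. Adipocyte genes (20 measured) had a median of -0.24, which was -0.55 on slide 1 and 0.09 on slide 2. Leaving out 4-day replicate 1 gave 0.08. Adipoq, the adiponectin gene, differed by -0.35 ± 0.81 and Pnpla2, a fat-breakdown lipase gene, by -0.48 ± 0.19.

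Immune genes, the subject of the study's title, gave no call between 60 and 4 days. Of 17 granulocyte genes 2 were below an unadjusted p of 0.05, both lower in 60-day tumours (1.43% of all genes were). S100a8, a calprotectin subunit gene, measured 2.83, 3.34, -0.10 and -0.82 in 60-day tumours, against 4.46, 2.68, 2.09 and 2.62 in 4-day tumours (-1.65 ± 0.74). S100a9, the partner subunit, measured 6.08, 6.01, 3.68 and 3.26 in 60-day tumours, against 6.52, 5.86, 5.15 and 5.17 in 4-day tumours (-0.92 ± 0.35). In both genes the RG7 tumours were low and the RG6 tumours lay within the 4-day range. The mean over the granulocyte list was 1.587 and 1.604 in the RG6 tumours and 0.80 and 0.86 in the RG7 tumours, against 1.04 to 1.597 in 4-day tumours, so the RG7 tumours were lowest there too. Csf3r differed by -0.30 ± 0.23 and Stfa1 by 0.67 ± 0.60. The list's median difference was -0.07, and 0.02 without 60-day replicate 2.

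Among 26 monocyte and macrophage genes the median was -0.13, which was -0.40 on slide 1 and 0.05 on slide 2 (leaving out 4-day replicate 3 gave 0.10), with none below an unadjusted p of 0.05. Csf1r, the receptor of the macrophage growth factor, differed by -0.21 ± 0.33, Arg1 by 0.18 ± 0.41, Apoe by -0.16 ± 0.17 and Ly6c1 by -0.06 ± 0.29. The list of myeloid chemokines and receptors had a median of -0.14 over 25 genes (0.10 without 4-day replicate 3). Of these, 1 was below an unadjusted p of 0.05 and higher in 60-day tumours (1.68% of all genes were), Il34, whose values are given further below. In this list Ccl2 differed by 0.07 ± 0.37 and its receptor gene Ccr2 by -0.13 ± 0.45. Cxcl12, a chemokine gene of stromal cells, measured -1.24, -1.13, -1.12 and -1.33 in 60-day tumours, against -0.34, -0.47, -0.46 and -0.65 in 4-day tumours. Those groups did not overlap (-0.72 ± 0.50), and its unadjusted p was 0.175. Its SD was 0.10 in 60-day and 0.13 in 4-day tumours, against 0.56 in untreated and 1.66 in resistant tumours, and the model takes 1 spread over all 4 groups.

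Of the T cell genes 21 of 25 differences were positive, with a median of 0.18 and none below an unadjusted p of 0.05. Without 60-day replicate 2 the median was -0.05, and the list means overlapped, with -0.10 to 0.74 in 60-day tumours and -0.27 to 0.50 in 4-day tumours. Cd3e, a subunit gene of the T cell receptor complex, differed by 0.16 ± 0.24, Thy1 by 0.29 ± 0.29 and Gata3 by 0.40 ± 0.73. Cd8a was not well above background in any 4-day tumour and was above it in 2 of the 4 60-day tumours. For the regulatory T cell gene Foxp3 the difference was 0.11 ± 0.22. Cytotoxic and NK cell genes had a median of 0.12 (-0.05 without 60-day replicate 2), with Ccl5 at 0.39 ± 0.57, Nkg7 at 0.16 ± 0.18 and Gzma at -0.07 ± 0.29. MHC class I presentation had a median of 0.18 over 20 genes (0.02 without 60-day replicate 2), with B2m at 0.19 ± 0.28 and H2-Q4 at -0.34 ± 0.32. Interferon response genes had a median of 0.09 over 32 genes (-0.13 if 4-day replicate 4 was left out, -0.03 if 4-day replicate 1 and -0.05 if 60-day replicate 2 was), with Isg15 at 0.04 ± 0.26, Cxcl11 at -0.32 ± 0.23 and Ifi27l2a at 0.20 ± 0.27. Cd274, the PD-L1 gene, differed by 0.33 ± 0.35.

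**Figure D5:**
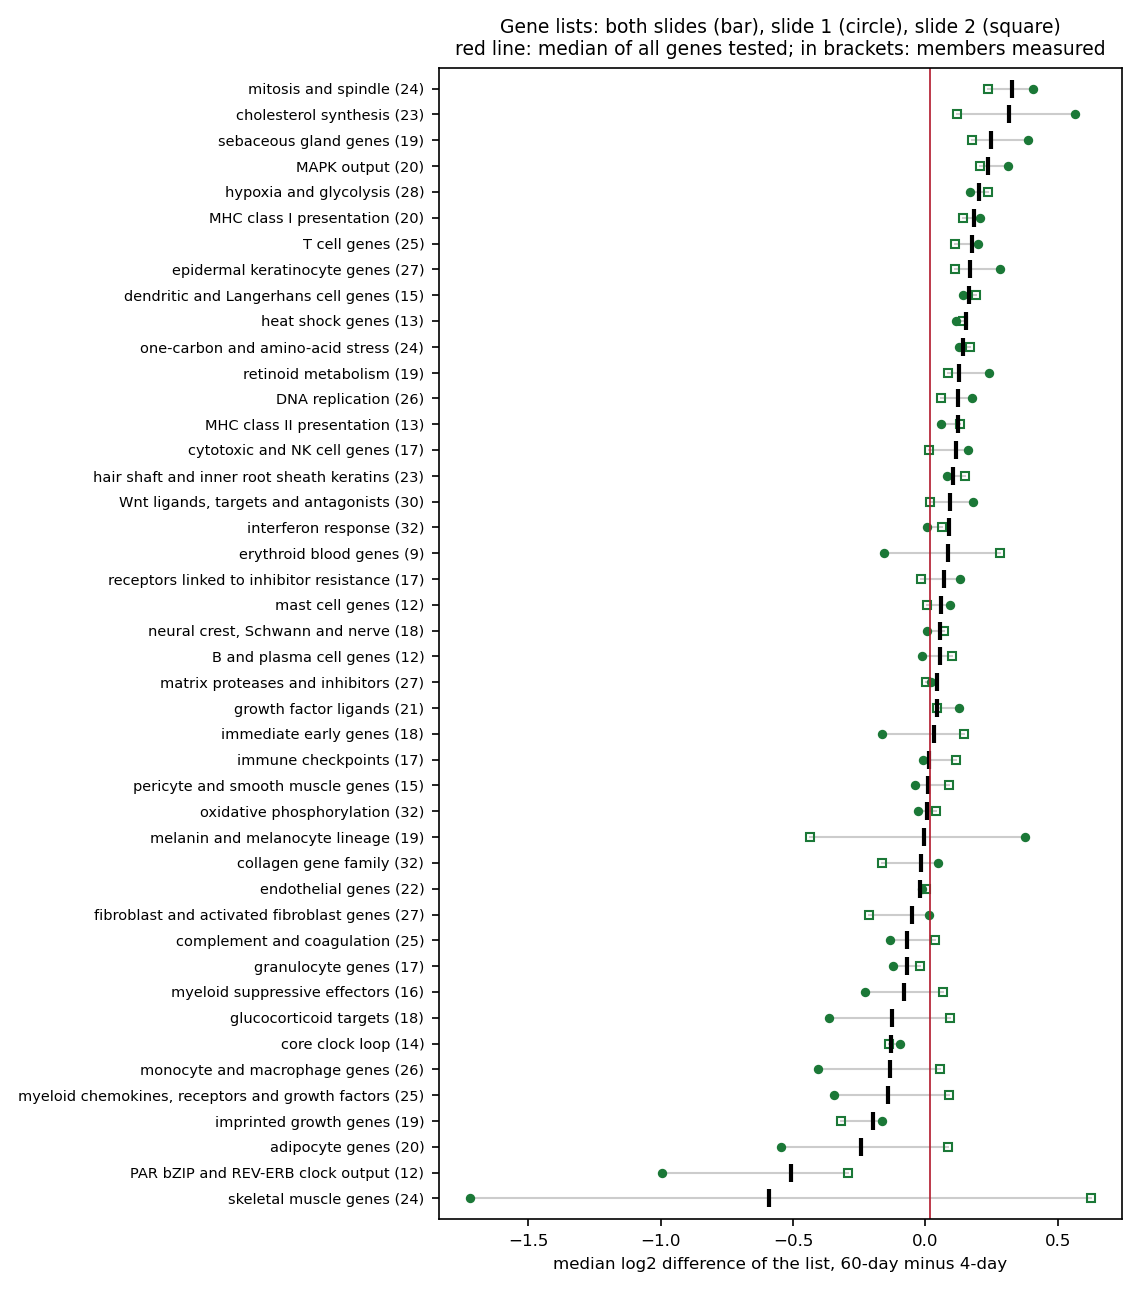
Median log2 difference, 60-day minus 4-day, for each of the 44 gene lists over both slides (bars), on slide 1 (filled circles) and on slide 2 (open squares), with the median of all genes as a red line. Most lists lie within 0.3 of it, the skeletal muscle list has opposite signs on the 2 slides (-1.72 and 0.63), and the clock output list is negative on both (-0.996 and -0.292).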

How the data were processed

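Tumour RNA in Cy5 and a reference RNA in Cy3 were hybridised together. Per the file headers, the deposited intensity values are mean spot and median local background signals from Agilent Feature Extraction 10.7.3.1, with processed intensity values after background and dye correction and their log10 ratios. Per the file headers, columns of another kind (other) hold 0 or 1 marks for spots above background, uniform or saturated. The authors also deposited a table of log2 ratios (Cy5 over Cy3), which fitted the rescaled log10 ratios with a slope of 0.993. It lists 45331 probes, lacks 21.6% to 40.2% of values per array, and was not centred (medians -0.194 to -0.0638). It served as an alternative.

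With limma 3.58.1 in R 4.3.3, background was removed by normexp (offset 50) and ratios were normalized by loess within each array, with control spots at no weight and outlier spots missing. The 59305 spots were averaged to 55681 probes, of which 30501 were above background in Cy5 on at least 4 of 16 arrays. Of these, 20082 probes were matched to RefSeq by accession and 1523 by name, which changed 1135 symbols, and 8896 kept the file's name. The brightest probe per symbol gave 21984 genes and transcripts, 15891 with a RefSeq symbol. The limma model held the 4 group means and the slide, with Benjamini-Hochberg adjustment over all genes and a threshold of 0.05. Each difference is 60-day minus 4-day, with its standard error, over 4 arrays each. Counts of list members are given beside the share over all genes. The number of arrays limits the precision. The code was tested on simulated data.

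Genes were named as the 12 with the smallest p in each direction (RefSeq symbols, filled up where fewer passed), list members past the threshold, the 2 brightest members of each list described, and a fixed set. The comparison, the 44 lists and the rule were chosen with earlier results of these data known. Alternatives changed the slide term, background, normalization, probe filter, value table, weights and left-out arrays.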

Additional observations from a re-analysis of the deposited data

Results flagged for a closer look

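Among the genes named or in the clock lists, sets of 4 values were screened for a tumour far from the other 3 of its group. Of 250 sets, 13 had such a tumour, beside about 1 in 20 that the cutoff would mark by chance in independent sets. These sets share arrays and are not independent. The 250 include the 4-day set of Bhlhe41, which lacked a value and was not screened. In the 60-day group, replicate 1 stood apart for Zcchc12 (3.07, others 2.24 to 2.36), Per2 (-0.27, others -0.52 to -0.48) and Per3 (0.26, others -0.41 to -0.37). Replicate 2 of the 60-day group was low for Csnk1d (0.77, others 0.94 to 0.97) and Emp1 (0.95, others 1.37 to 1.42) and high for Cdkn1c (2.89, others 1.75 to 1.91). Replicate 3 of that group was low for Tnnc2 (0.34, others 3.65 to 4.24) and high for H2-Q4 (0.99, others 0.42 to 0.51). In the 4-day group, replicate 2 was high for Ccnd1 (0.73, others -0.13 to -0.04) and Foxp3 (0.40, others 0.03 to 0.08) and low for Acta1 (0.01, others 3.37 to 3.83). Replicate 4 of the 4-day group was low for Adcy5 (1.32, others 1.64 to 1.69), and replicate 1 was high for Npas2 (1.73, others -0.05 to 0.14).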

How the results depend on the processing

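The count of 1 called gene, Arntl, was the same under 17 of 36 alternatives. It was 0 under 15, by limma throughout: with no slide term, with the 8 arrays fitted alone with or without the slide, with median centring in place of loess, on slide 1 or slide 2 alone, without 4-day replicates 1 and 2 together (an alternative chosen after seeing the data), and under 8 of the 16 fits that left out 1 array. Those 16 fits gave counts from 0 to 2. The 0 counts went with 261 to 918 genes at an unadjusted p under 0.05. The count was 3 with the title code as a random block (Arntl, Dbp and the transcript ENSMUST00000140820), 2 without resistant replicate 2 or 4, and 15 with array weights (11 higher and 4 lower, with 2749 genes at an unadjusted p under 0.05). In the title code fit all 4-day tumours formed 1 block, and every code lay within 1 group. The standard error of Arntl was 0.148 there, against 0.173 in the main fit. That fit does not show that the call allows for tumours sharing a code. The cause of these changes in the count was not tested, and some of the fits also held fewer arrays. The differences of Dbp (-2.72 to -1.52), Tef (-1.75 to -0.86) and Clock (0.47 to 0.72) kept their sign under all 36. Arntl also kept its sign, while Col28a1, called with array weights, was at -0.11 with the deposited value table. No paired analysis was possible because the numbers in the titles of the 60-day tumours run within a title code and repeat, so they give no tumour a partner among the 4-day tumours. Dim probes are limited by background: Per3 was above it in 2 of 4 60-day tumours and all 4-day tumours. Per2 was above it in 3 of 4 60-day tumours and all 4-day tumours, and Cry1 in all 60-day tumours and 2 of 4 4-day tumours.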

Other observations

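The following genes were chosen after their values were seen, and none passed the adjusted threshold. Cldn11, a tight junction gene, was not well above background in any 60-day tumour and was above it in all 4-day tumours. It measured 0.36, 0.58, 0.26 and 0.38 in 60-day tumours, against 3.42, 2.24, 5.18 and 2.43 in 4-day tumours (-2.92 ± 0.82, adjusted p = 1). In Cy5 its mean was 7.56-fold lower in 60-day tumours (mean log2 signal 6.49 in 60-day and 9.41 in 4-day tumours), an estimate limited by background in the 60-day tumours. Its mean ratio was 1.87 in untreated and 1.88 in resistant tumours. Inmt, a methyltransferase gene, averaged -1.36 ± 0.56 in 60-day tumours and 0.30 ± 1.22 in 4-day tumours (SD, n = 4 each), and 4-day replicate 2 overlapped the 60-day range. The imprinted gene Dlk1 had groups that did not overlap, with -5.43 to -4.90 in 60-day tumours and -4.52 to -2.72 in 4-day tumours. The transcript ENSMUST00000140820, which has no RefSeq symbol here, measured 1.10, 1.01, 1.46 and 0.96 in 60-day tumours, against 0.19, 0.15, -0.05 and 0.31 in 4-day tumours (0.98 ± 0.16, adjusted p = 0.168).

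Il34, which encodes a ligand of the Csf1r receptor, measured 2.61, 2.49, 2.41 and 2.56 in 60-day tumours, against 1.67, 2.20, 1.96 and 2.08 in 4-day tumours (0.54 ± 0.15). The groups did not overlap. Hspa5, a chaperone gene of the endoplasmic reticulum, differed by 0.36 ± 0.10 and the glycolytic gene Pgk1 by 0.31 ± 0.12, each with groups apart. Mmp11, a matrix protease gene, differed by -0.76 ± 0.27, with -1.38 to -1.13 in 60-day tumours and -0.86 to 0.45 in 4-day tumours. Top2a, a topoisomerase gene of dividing cells, differed by 0.51 ± 0.21, and Etv1, an output gene of MAPK signalling, by 1.02 ± 0.46. In the 20 lists not described above, 14 members were higher and 5 lower at an unadjusted p under 0.05 among 375 measured (1.68% of all genes were higher and 1.43% lower), and list medians lay between -0.08 and 0.17. Members were counted once per list, so a gene may count more than once or belong to a described list as well.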
